A study of Mus musculus with 6 samples.

Results

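Transcripts of 9 genes of the renin-angiotensin system (Ren1, Akr1b7, Agt, Ace, Agtr1a, Agtr1b, Enpep, Mme and Atp6ap2) were compared between glomeruli of mice lacking alpha-parvin in podocytes and glomeruli of their controls. The genes were listed by symbol, and each was found through its NCBI Gene identifier among the 27179 features of a table of normalised counts. KO mice (KO-1, KO-2 and KO-3) carried 2 floxed copies of Parva and a Cre transgene that acts in podocytes. WT mice (Parva-fl/fl; WT-1, WT-2 and WT-3) had the same floxed alleles but no Cre. All 6 mice were males of 9 weeks on a C57BL/6 mixed strain, and the labels describe mild proteinuria in the mice used. Glomeruli were isolated by perfusion with magnetic beads and lysed whole, so that a library holds RNA of podocytes, endothelial and mesangial cells and of adhering arterioles and tubules, and in such libraries fewer cells of a type and less RNA per cell cannot be told apart. Values by library are listed in the order of the animals' numbers.

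Renin, an aspartyl protease released by juxtaglomerular cells of the afferent arteriole, cuts angiotensinogen to angiotensin I, which angiotensin-converting enzyme (Ace) shortens to angiotensin II. Angiotensin II acts on the type 1 receptor, which mesangial cells, vascular muscle and other cells carry, and aminopeptidase A (Enpep) and neprilysin (Mme) break angiotensins down. In the kidney Enpep and Mme lie both on podocytes and on the brush border of the proximal tubule, and the tubule also makes Ace and angiotensinogen.

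Ren1 and Akr1b7, an aldose reductase family enzyme known as a companion marker of mouse renin cells, were both lower in KO, and the 250 bases before their annotated starts are shown for that reason. The sequences are those of RefSeq, build GRCm38.p6, plus strand, chr1:133350424-133350673 for Ren1 and chr6:34412112-34412361 for Akr1b7. Capitals mark matches to TATAAA and to TGATNNAT, a PBX-HOX motif, on either strand.
Ren1: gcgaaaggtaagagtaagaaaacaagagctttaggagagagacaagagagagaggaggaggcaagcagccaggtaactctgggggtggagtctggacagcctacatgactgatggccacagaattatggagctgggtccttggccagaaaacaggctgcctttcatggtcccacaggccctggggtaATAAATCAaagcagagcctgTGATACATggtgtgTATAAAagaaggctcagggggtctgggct
Akr1b7: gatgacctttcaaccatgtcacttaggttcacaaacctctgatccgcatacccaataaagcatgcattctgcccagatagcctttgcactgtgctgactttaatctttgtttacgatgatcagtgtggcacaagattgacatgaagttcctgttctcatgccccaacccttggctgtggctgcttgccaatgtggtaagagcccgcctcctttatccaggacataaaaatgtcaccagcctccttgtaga
In Ren1, TATAAA lay at -29 to -24, and TGATNNAT matched at -63 to -56 on the minus strand and at -43 to -36 on the plus strand, where -1 is the base before the start. No match shared bases with another. Akr1b7 held neither motif in this window. Among the 32851 promoter windows of the same length, 12.4% held TATAAA and 7.68% held TGATNNAT. Neither promoter held TGACG, the core of the cAMP response element (17.8% of windows), or TGGGAA, the RBPJ core (21.6% of windows). A match in letters is no evidence of binding, and its absence from this window says nothing of other regions.

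The libraries held 11886828 to 20552984 whole reads. In 4 of them, KO-1 and the WT libraries, 10 genes, each with at least 30 times more in 1 library than in the others, took 17.4% to 32.4% of the reads, against 0.241% and 0.239% in KO-2 and KO-3. No member was among these genes. Parva, the targeted gene, stood at 1942 to 2338 normalised counts in KO and at 6585 to 7890 in WT, and fell in limma (log2 fold change -1.74, SE 0.12, adjusted p = 0.0106). Markers of the proximal tubule moved with genotype and bear on the peptidases. Of 20, 19 rose and none was at 0, and their summed normalised counts spanned 290396 to 444938 in KO and 113223 to 254292 in WT, with WT-1 at the top of the WT range. Mesangial markers moved the other way, as 8 of 12 fell, with sums of 60030 to 71167 in KO and 80741 to 97483 in WT. Of 14 endothelial markers 11 fell, and none of 8 immune markers passed. Of 16 podocyte markers 7 fell and 9 did not pass, and 2 of the 16 had a positive log2 fold change. Among all genes tested, 13.5% were higher and 8.58% lower in KO. The immune markers summed to 4915 in KO-3, against 1256 and 1915 in the other KO libraries and 1175 to 1900 in WT, and KO-3 was also the highest library for Agt, Mas1 and Tagln.

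Across the 13946 genes tested, limma called 22.1%, with 13.5% higher and 8.58% lower in KO. Of the 9 members, 8 passed the filter on low values, and 4 of these 8 were called: Ren1, Akr1b7 and Agtr1a fell and Ace rose. Agt, Enpep, Mme and Atp6ap2 did not pass, and Agtr1b was too low to test. The median log2 fold change was -0.23 over the 8 tested members and -0.006 over all genes tested. KO and WT libraries did not overlap in 5 of the 8, against 45.1% of all genes tested; 1 of these was higher in KO (23.2% of all genes) and 4 were lower (21.9%). The same 4 members were called by edgeR, which called 20.9% of all genes, and Agt and Enpep joined them in DESeq2, which called 27.2%. None of the 4 calls survived the loss of KO-2, KO-3, WT-2 or WT-3, where limma called 0 to 4 genes in all. All 4 were kept without KO-1, where Agt joined them and limma called 2062 of the 13946 genes. They were also kept without WT-1, where Enpep joined them and 30.8% of all genes were called.

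**Figure D1:**
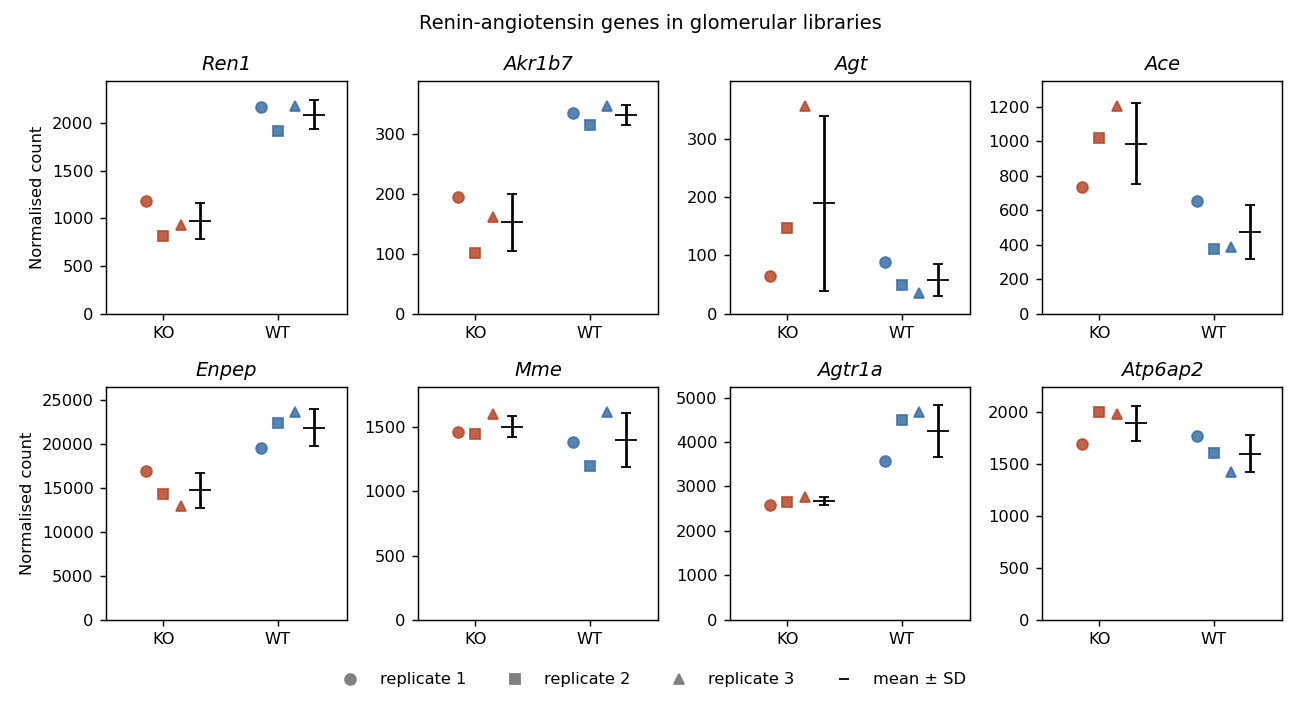
Normalised counts of the 8 tested members in each library (points, KO left of WT; black bars, mean ± SD of 3 libraries). Ren1, Akr1b7, Agtr1a and Enpep had all KO points below all WT points, Ace the reverse, and Agt, Mme and Atp6ap2 overlapped.

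Renin cell genes were less abundant in KO glomeruli. Ren1 (NCBI Gene 19701; mm10 chromosome 1, 133350674 to 133360320) reached normalised counts of 1180, 811 and 924 in the KO libraries, against 2165, 1910 and 2177 in the WT libraries. The highest KO library lay well below the lowest WT library, and the KO mean was 0.466 of the WT mean. The log2 fold change was -1.11 (SE 0.145, limma adjusted p = 0.0286). All exact permutation tests here are two-sided and cannot go below 0.1 with 3 libraries against 3, which is the p they gave for Ren1. Akr1b7 (NCBI Gene 11997; mm10 chromosome 6, 34412362 to 34423137) reached normalised counts of 196, 100.7 and 161 in the KO libraries, against 336, 315 and 347 in the WT libraries. KO-2 was the lowest library for both genes and KO-1 the highest KO library for both. Akr1b7 fell too, at -1.17 on the log2 scale (SE 0.23, limma adjusted p = 0.0286; exact permutation p = 0.1). The annotated pseudogene Gm13857 on the opposite strand shares 27.2% of its exon bases, and since the strand setting of the counting is not given, reads of the pair cannot be told apart. Some mouse strains carry Ren2, a near-identical renin gene that has no row in the table. Its reads would fall to Ren1 if the mixed strain carried it, which was not tested.

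Mesangial and smooth muscle markers of the same libraries were set beside the renin cell genes. The log2 level of Ren1 minus the mean log2 level of 12 mesangial markers was -1.25, -1.52 and -1.53 in the KO libraries, against -0.76, -1.26 and -1.03 in the WT libraries. The groups met at KO-1 and WT-2, and the difference was -0.42 on the log2 scale (exact permutation p = 0.2, Benjamini-Hochberg adjusted p = 0.24 over the 12 pairs of member and marker list compared). Relative to 7 smooth muscle markers, Ren1 was at 0.50, 0.07 and -0.24 in the KO libraries and at 1.4, 1.07 and 1.15 in the WT libraries on the log2 scale. These values did not overlap, with a difference of -1.1 (exact permutation p = 0.1, adjusted p = 0.171). Akr1b7 differed by -0.47 from the mesangial and by -1.15 from the smooth muscle markers (exact permutation p = 0.2 and 0.1, adjusted p = 0.24 and 0.171). Smooth muscle genes did not move as a block. Myh11, a smooth muscle myosin, and Des, desmin, fell (-0.68 and -0.61 on the log2 scale, limma adjusted p = 0.0286 and 0.0321). Tagln, a contractile protein gene, rose (1.56, limma adjusted p = 0.0304, highest in KO-3), and 4 did not pass. Cnn1 and Actg2 were under the filter, with Actg2 at 0 in every library except WT-3, where it was at 1.65. With the median of the smooth muscle markers in place of their mean the differences were -2.01 for Ren1 and -2.07 for Akr1b7. The middle marker was not the same gene in each library. It was Tagln, Smtn and Smtn in the KO libraries, at 1254, 1253 and 1160 normalised counts. In the WT libraries it was Tagln, Acta2 and Acta2, at 629, 645 and 698. The differences from the median thus include a change of reference gene, and the median log2 fold change of the 7 markers was -0.24.

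Genes that control renin expression and release were lower more often than higher in KO. Of 28 tested in a list of 30, 11 fell, 3 rose and 14 did not pass, against 8.58% lower and 13.5% higher among all genes, and the median log2 fold change was -0.41. Gja5, the connexin 40 that couples renin cells to their neighbours, had normalised counts of 1912, 1122 and 1607 in the KO libraries and of 2934, 3321 and 3601 in the WT libraries. As for Ren1 and Akr1b7, KO-2 was its lowest and KO-1 its highest KO library, and the mesangial markers had the same order, with mean log2 levels of 11.46, 11.18 and 11.39 in the KO libraries. The WT order was not shared. There the mesangial markers were at 11.84, 12.16 and 12.12, highest in WT-2, the lowest WT library for Ren1 and Akr1b7. The log2 fold change of Gja5 was -1.12 (SE 0.19, limma adjusted p = 0.0286). Gja4, connexin 37, averaged 442 ± 66.6 in KO and 735 ± 43.1 in WT (SD, n = 3 each), a log2 fold change of -0.74. The prostaglandin E2 receptors that raise cAMP fell as well. Ptger2 averaged 35.5 ± 4.26 in KO and 96.0 ± 18.0 in WT, and Ptger4 789 ± 98.8 in KO and 1201 ± 92.2 in WT (SD, n = 3 each), log2 fold changes of -1.4 and -0.61, all 3 genes at a limma adjusted p of 0.0286. Mesangial and endothelial cells also express several of these genes, and the part of the lower mesangial and endothelial markers in these values was not tested.

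The genes of the renin control list that rose were Adrb1, the beta-1 adrenergic receptor through which sympathetic nerves release renin, Nr1h3, the liver X receptor alpha, and Vdr, the vitamin D receptor, all named after their values were seen. Adrb1 was low, at 63.8, 112 and 40.8 normalised counts in the KO libraries and at 19.6, 9.90 and 33.7 in the WT libraries (log2 fold change 1.76, SE 0.51, limma adjusted p = 0.048). Vdr averaged 2198 ± 504 in KO and 1098 ± 228 in WT (SD, n = 3 each; log2 fold change 0.995, limma adjusted p = 0.0286), and Nr1h3 345 ± 63.2 in KO and 224 ± 26.8 in WT (0.61, limma adjusted p = 0.0414). Distal nephron markers, with summed normalised counts of 51197, 75102 and 35496 in the KO libraries and 37776, 11186 and 19995 in the WT libraries, ranked the libraries of each genotype as Vdr did and the KO libraries as Adrb1 did; their part in these values was not tested. Rbpj, the Notch effector that renin cells need, stood at 423, 282 and 282 in the KO libraries and at 592, 597 and 348 in the WT libraries, so that the groups overlapped (log2 fold change -0.62, limma adjusted p = 0.113). Ptgs2 and Nos1, the cyclooxygenase 2 and neuronal nitric oxide synthase of the macula densa, were scarce. Ptgs2 lay between 11.9 and 19.3 in KO and between 6.93 and 17.3 in WT, and Nos1 was at most 1.77 in KO and at 0 in WT, under the 3 reads taken as the floor of counting.

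Angiotensinogen, the substrate of renin, was low and uneven. Agt (NCBI Gene 11606; mm10 chromosome 8, 124556587 to 124569706) reached normalised counts of 64.7, 146 and 356 in the KO libraries, against 88.0, 48.5 and 35.4 in the WT libraries. KO-1 lay below WT-1, and KO-3 stood above all other libraries. The log2 fold change of 1.48 had an SE of 0.61 and did not pass (limma adjusted p = 0.117). Without KO-1 it was 2.08 (limma adjusted p = 0.0456) and without KO-3 0.86 (limma adjusted p = 0.26). DESeq2 gave adjusted p = 0.0149 and edgeR 0.0861. Relative to the 20 proximal tubule markers the difference was -0.03 on the log2 scale (exact permutation p = 1.0), with KO values from -6.78 to -4.79 and WT values from -6.05 to -5.64. The KO values lay on both sides of the WT values, and the difference was 0.40 without KO-1 and -0.59 without KO-3.

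The peptidases did not move together. Ace, the converting enzyme (NCBI Gene 11421; mm10 chromosome 11, 105967948 to 105989964), was counted at 735, 1017 and 1205 in the KO libraries, against 654, 374 and 389 in the WT libraries. Ace rose, by 1.08 on the log2 scale (SE 0.26, limma adjusted p = 0.0321; exact permutation p = 0.1), with the groups apart and WT-1 nearest to KO-1. WT-1 was likewise the WT library richest in proximal tubule markers and KO-1 the KO library poorest in them. Relative to these markers Ace stood at -3.30, -3.38 and -3.03 in the KO libraries and at -3.07, -2.72 and -2.63 in the WT libraries, a difference of -0.43 with overlap (exact permutation p = 0.2, adjusted p = 0.24). Relative to 14 endothelial markers the difference was 1.68 without overlap (exact permutation p = 0.1, adjusted p = 0.171). With the mean of the proximal tubule markers as a covariate, the log2 fold change of Ace was -0.01 (SE 0.24, limma adjusted p = 0.9997). The covariate did not overlap between the genotypes and limma called none of the 13946 genes in that fit, so it cannot tell tubule content from genotype. The part of the proximal tubule in the Ace values was not tested. The antisense gene Gm11651 shares 5.58% of the exon bases of Ace.

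Enpep, aminopeptidase A, had the highest level per kilobase of the members. Its gene, NCBI Gene 13809 (mm10 chromosome 3, 129269177 to 129332749), showed normalised counts of 16913, 14392 and 13001 in the KO libraries, against 19566, 22460 and 23666 in the WT libraries. All KO libraries lay below all WT libraries, at a log2 fold change of -0.57 (SE 0.17) that did not pass (limma adjusted p = 0.0501; exact permutation p = 0.1). The adjusted p lay just under the threshold with TMM scaling (0.0495), upper quartile scaling (0.0431), a pseudocount of 0.5 (0.0498) and a minimum mean of 50 (0.0407), at 0.0283 without WT-1 and at 0.00187 in DESeq2. It lay above the threshold in edgeR (0.0617), and in limma with a pseudocount of 5 (0.0511), without the variance trend (0.0556), without a filter (0.3995) and with the replicate block (0.193). Leaving out any library other than WT-1 gave 0.0563 to 0.162. With endothelial and mesangial markers set equal the log2 fold change was 0.0758 (limma adjusted p = 0.727). Relative to 16 podocyte markers, Enpep stood at 1.1, 1.21 and 1.17 in the KO libraries and at 1.24, 1.22 and 1.24 in the WT libraries on the log2 scale. This difference of -0.07 did not overlap (exact permutation p = 0.1, adjusted p = 0.171) and was small beside the -2.08 found against the proximal tubule markers (exact permutation p = 0.1, adjusted p = 0.171).

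Mme, neprilysin (NCBI Gene 17380; mm10 chromosome 3, 63295211 to 63383713), was counted at 1462, 1448 and 1599 in the KO libraries, against 1386, 1193 and 1616 in the WT libraries. The WT range held the KO range. The log2 fold change was 0.11 (SE 0.12, limma adjusted p = 0.524; exact permutation p = 0.5). Relative to the podocyte markers Mme was at -2.13 ± 0.29 in KO and at -2.74 ± 0.24 in WT, and relative to the proximal tubule markers at -2.60 ± 0.28 in KO and at -1.21 ± 0.72 in WT (log2, SD, n = 3 each). Neither pair of ranges overlapped, and each gave an exact permutation p = 0.1 (adjusted p = 0.171). Against podocyte markers the KO values were the higher, and against tubule markers the lower.

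**Figure D2:**
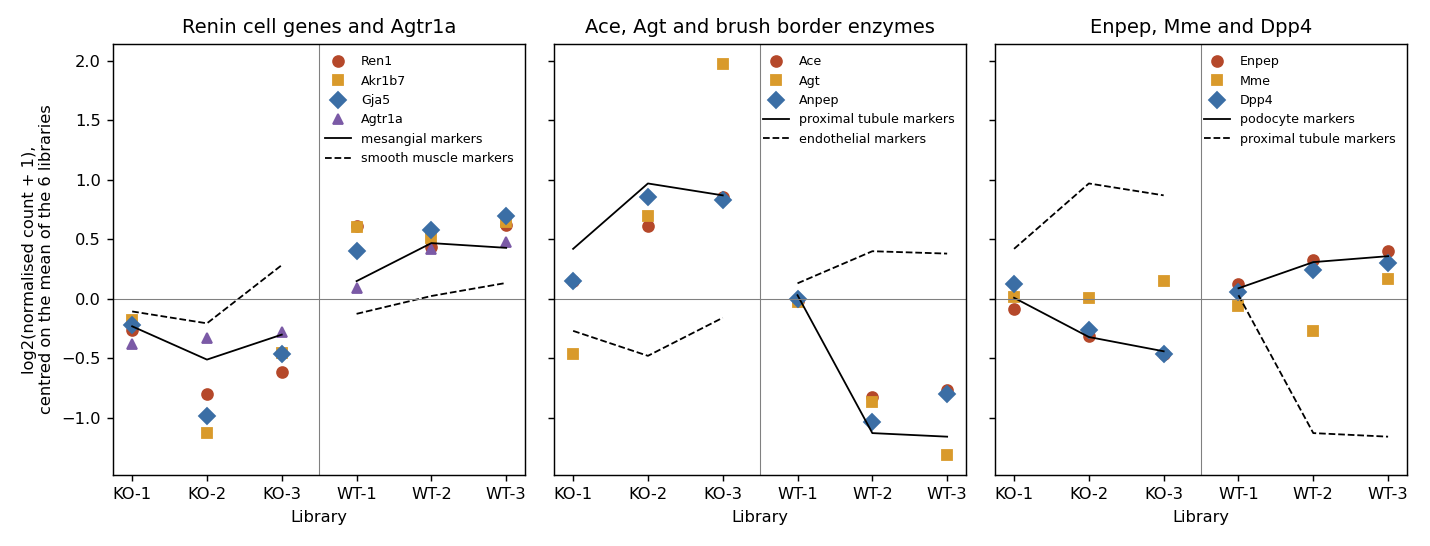
Log2 levels in each library, centred on the mean of the 6 libraries (points, genes; lines, means of marker lists; KO libraries left). Ren1, Akr1b7 and Gja5 lay lowest in KO-2, Ace and Anpep lay near the proximal tubule markers, highest of the WT libraries in WT-1, and Enpep lay near the podocyte markers.

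Other brush border peptidases were compared with these 3. Of 9 tested, 6 rose, none fell and 3 did not pass, against 13.5% higher and 8.58% lower among all genes. The median log2 fold change was 1.48, close to the 1.52 of the proximal tubule markers, against -0.006 among all genes. Dpep1, a dipeptidase, averaged 1199 ± 355 in KO and 431 ± 175 in WT, the metalloprotease Mep1a 6640 ± 1133 in KO and 2414 ± 1367 in WT, and the glutathione-cleaving Ggt1 7141 ± 1139 in KO and 2759 ± 1478 in WT (SD, n = 3 each), at limma adjusted p of 0.0287, 0.0298 and 0.0303. Anpep, which belongs to this list and to the angiotensin pathway, is given with the pathway. Dpp4, named after its values were seen, was the member of the list with a negative log2 fold change, at 9037, 6885 and 6010 in the KO libraries against 8586, 9786 and 10198 in the WT libraries (log2 fold change -0.40, limma adjusted p = 0.129).

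Among the receptors, the type 1a angiotensin receptor fell. Agtr1a (NCBI Gene 11607; mm10 chromosome 13, 30336356 to 30382867) reached normalised counts of 2575, 2660 and 2766 in the KO libraries, against 3579, 4488 and 4672 in the WT libraries. The KO libraries lay close together and below all WT libraries, of which WT-1 was the lowest. The log2 fold change was -0.66 (SE 0.12, limma adjusted p = 0.0286; exact permutation p = 0.1). Its level relative to the mesangial markers was -0.13, 0.19 and 0.05 in the KO libraries and -0.04, -0.03 and 0.07 in the WT libraries, a difference of 0.04 within the spread of the libraries (exact permutation p = 0.8, adjusted p = 0.873). Scaling the libraries to equal endothelial and mesangial markers gave a log2 fold change of -0.01 (limma adjusted p = 0.934) for Agtr1a. Ren1 was at -0.47 (limma adjusted p = 0.0415) and Akr1b7 at -0.53 (limma adjusted p = 0.0626). In this setting limma called 8845 of the 13946 genes, 8798 higher and 47 lower. Relative to the mesangial markers alone, the KO and WT libraries of Ren1 overlapped (difference -0.42, exact permutation p = 0.2, adjusted p = 0.24). Agtr1b (NCBI Gene 11608; mm10 chromosome 3, 20314473 to 20367177), the near-identical type 1b receptor, had 1 whole read in each KO library and 0 in each WT library. Both groups were below the floor of 3 reads, so no fold change is given. Reads of the coding part that the type 1 receptors share could be split or dropped in counting, and the treatment of such reads is not given in the sources used here.

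Atp6ap2, the (pro)renin receptor, is also an accessory subunit of the vacuolar proton pump. Its gene, NCBI Gene 70495 (mm10 chromosome X, 12587759 to 12617051), showed normalised counts of 1698, 2003 and 1981 in the KO libraries, against 1777, 1609 and 1425 in the WT libraries. KO-1 lay below WT-1, and the log2 fold change of 0.24 (SE 0.11) did not pass (limma adjusted p = 0.159; exact permutation p = 0.2). Of 15 subunits of the pump, 8 rose, none fell and 7 did not pass, with a median of 0.50. Among all genes tested 13.5% were higher and 8.58% lower, with a median of -0.006. Atp6v1b2 averaged 3054 ± 395 in KO and 1548 ± 477 in WT, and Atp6v1a 4587 ± 684 in KO and 2615 ± 832 in WT (SD, n = 3 each; limma adjusted p = 0.0286 and 0.0371). Atp6v1e1 and Atp6v1f were at log2 fold changes of 0.54 (limma adjusted p = 0.0303) and 0.50 (0.0366), and Atp6ap1, the other accessory subunit, named after its values were seen, was at 0.02 (limma adjusted p = 0.875). The proximal tubule, whose markers rose, is rich in this pump. Distal nephron markers were higher in KO too, with mean log2 levels differing by 1.28. They were lowest of the KO libraries in KO-3, as were Atp6v1a, Atp6v1e1 and Atp6v1f. Atp6v1b2 was lowest of the KO libraries in KO-1, as the proximal tubule markers were. The part of either segment in these values was not tested.

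The remaining pathway genes had higher KO means wherever they could be tested. In a list of 20, 19 had a row and 14 were tested. Of the 14, 8 rose, none fell and 6 did not pass, with a median log2 fold change of 0.63, against 13.5% higher and a median of -0.006 among all genes. The proximal tubule markers, whose mean log2 level differed by 1.51, were highest of the WT libraries in WT-1 and lowest of the KO libraries in KO-1, and the pathway genes that rose and are named here had the same extremes. The part of these markers in the list was not tested. Anpep, the aminopeptidase N that degrades angiotensin III, had normalised counts of 723, 1180 and 1159 in the KO libraries, against 647, 316 and 372 in the WT libraries (log2 fold change 1.23, SE 0.30, limma adjusted p = 0.0327). The lysosomal cathepsin A (Ctsa) averaged 3295 ± 589 in KO and 2103 ± 288 in WT, and neurolysin (Nln) 334 ± 26.3 in KO and 201 ± 53.5 in WT (SD, n = 3 each; 0.64 and 0.76 on the log2 scale, limma adjusted p = 0.0338 and 0.0353). Prcp, a carboxypeptidase that cuts angiotensin II, Agtrap, which binds the type 1 receptor, and the cathepsins Ctsb and Ctsd rose by 0.76, 0.49, 0.46 and 0.54 on the log2 scale (limma adjusted p = 0.0442, 0.0413, 0.0443 and 0.0443).

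The 6 pathway genes that did not pass differed widely in level. Klk1, tissue kallikrein of the distal nephron, stood at 18714, 24369 and 10320 in the KO libraries and at 10312, 3120 and 6718 in the WT libraries (log2 fold change 1.48, SE 0.47, limma adjusted p = 0.0612), with KO-3 and WT-1 nearly equal. Of the distal nephron markers 3 of 14 rose, against 13.5% of all genes. Their summed normalised counts were 35496 to 75102 in KO and 11186 to 37776 in WT, the lowest KO library being KO-3 and the highest WT library WT-1. Mas1, the angiotensin 1-7 receptor, was at 30.1, 32.5 and 89.6 in KO and at 22.8, 11.9 and 23.0 in WT (log2 fold change 1.23, limma adjusted p = 0.105). Rnpep, aminopeptidase B, was at 0.62 on the log2 scale (SE 0.26, limma adjusted p = 0.117). Lnpep, the insulin-regulated aminopeptidase that binds angiotensin IV, Prep, a prolyl peptidase, and Thop1, thimet oligopeptidase, lay at 0.03, 0.14 and 0.14 (limma adjusted p = 0.9, 0.481 and 0.414). Agtr2, Mrgprd, Cma1, Ctsg and Cpa3 were under the filter, at 0 to 2.27 normalised counts in every library, so that mast cell proteases (Cma1, Cpa3) and the type 2 receptor were at or near 0.

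**Figure D3:**
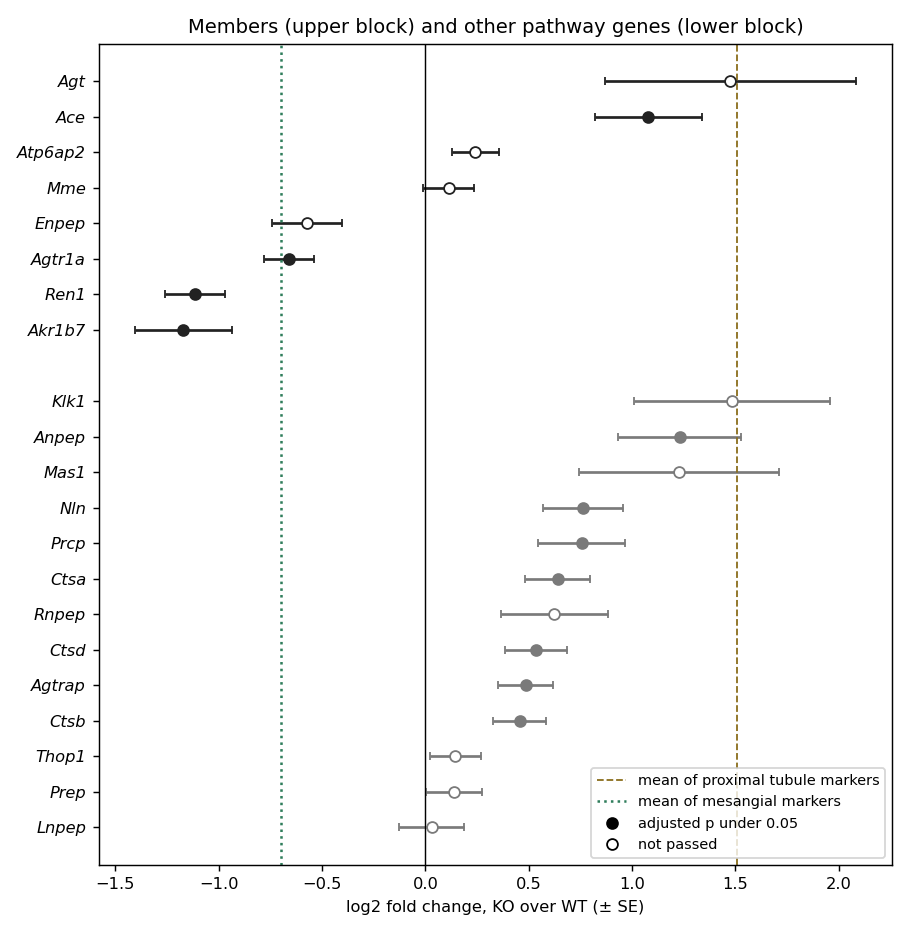
Log2 fold change of KO over WT (± SE, limma) for the 8 tested members above and the other tested pathway genes named in the text below; filled points passed an adjusted p of 0.05. Vertical lines give the mean difference of the proximal tubule markers (1.51) and of the mesangial markers (-0.70).

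Levels were set against each other only per kilobase of annotated exon, in normalised counts per kilobase. In KO the order was Enpep (3138 ± 421), Agtr1a (957 ± 34.2), Atp6ap2 (724 ± 64.9), Ren1 (586 ± 114), Ace (187 ± 44.7), Mme (130.2 ± 7.24), Akr1b7 (119 ± 37.6) and Agt (99.9 ± 79.5), with Agtr1b last at 0.482. In WT it was Enpep (4653 ± 448), Agtr1a (1524 ± 210), Ren1 (1258 ± 91.0), Atp6ap2 (613 ± 67.4), Akr1b7 (259.6 ± 12.9), Mme (121 ± 18.4), Ace (89.4 ± 29.8) and Agt (30.3 ± 14.5; SD, n = 3 each), with Agtr1b at 0. Neighbours whose libraries overlapped were Atp6ap2 and Ren1, Mme and Akr1b7, and Akr1b7 and Agt in KO, and Agtr1a and Ren1, and Mme and Ace in WT. Ren1 stood above Atp6ap2 in every WT library, whereas their KO libraries overlapped.

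The genes whose profile over the 6 libraries was most like that of Ren1 were sought among 11703 named genes with a mean of at least 50, as the smallest mean absolute difference of centred log2 levels. Slc27a3 (0.096), Akr1b7 (0.114), Scd2 (0.119), Zfp566 (0.123) and Amph (0.126) came closest. Slc27a3 stood at 436, 318 and 374 normalised counts in the KO libraries and at 766, 692 and 671 in the WT libraries. For Enpep the nearest were Rin2 (0.012), 5031425E22Rik (0.018), Hnrnpdl (0.025), Fyn (0.028) and Podxl (0.029), the last a podocyte sialoglycoprotein at 72295, 58127 and 53537 in the KO libraries and 83289, 94564 and 96785 in the WT libraries. The measure covers 6 libraries that share their genotype contrast.

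**Figure D4:**
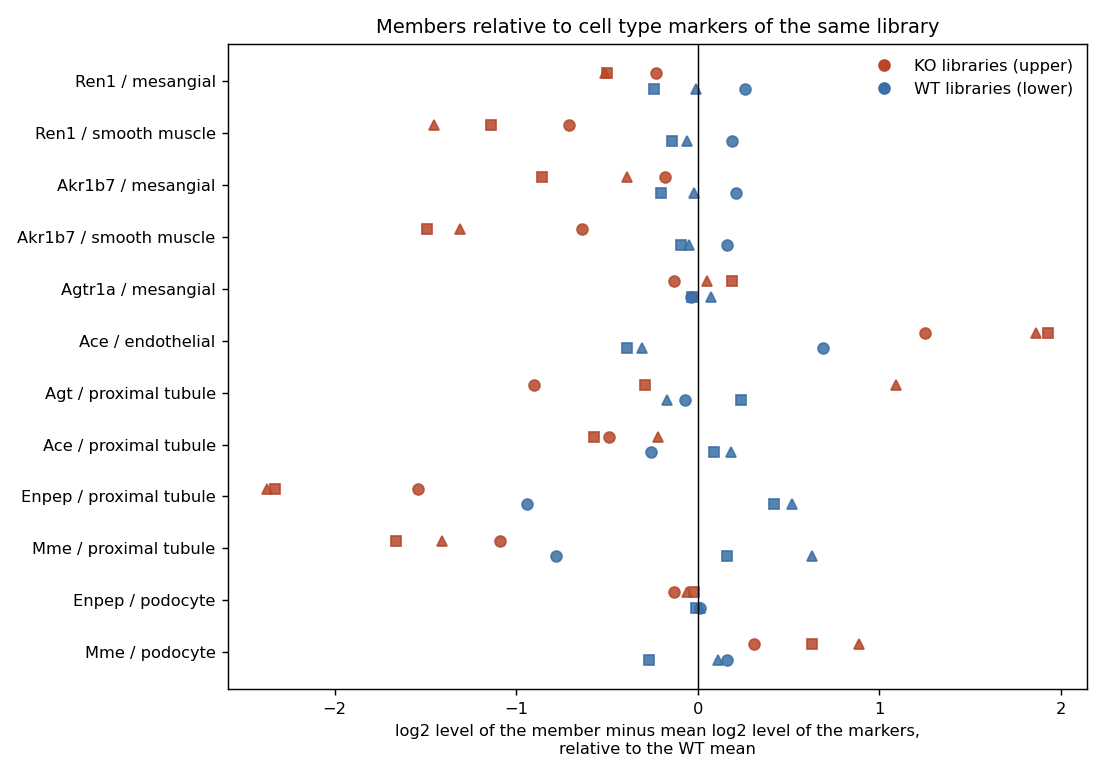
Log2 level of a member minus the mean log2 level of a marker list in the same library, set to 0 at the WT mean (KO libraries in the upper row of each pair). Agtr1a against mesangial markers (difference 0.04) and Enpep against podocyte markers (-0.07) lay near 0, Enpep against proximal tubule markers at -2.08 and Ace against endothelial markers at 1.68.

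When the mean of the proximal tubule markers entered limma as a covariate, no member passed, and the log2 fold changes were -0.99 for Ren1, -0.86 for Akr1b7, -0.31 for Agtr1a, -0.19 for Enpep, 0.11 for Mme, -0.12 for Atp6ap2 and -0.42 for Agt (adjusted p = 0.9997 for each). In that fit limma called none of the 13946 genes, with 402 at an unadjusted p below 0.05. The covariate itself did not overlap between the genotypes, with mean log2 levels of 12.82 to 13.37 in KO and 11.24 to 12.43 in WT.

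**Figure D5:**
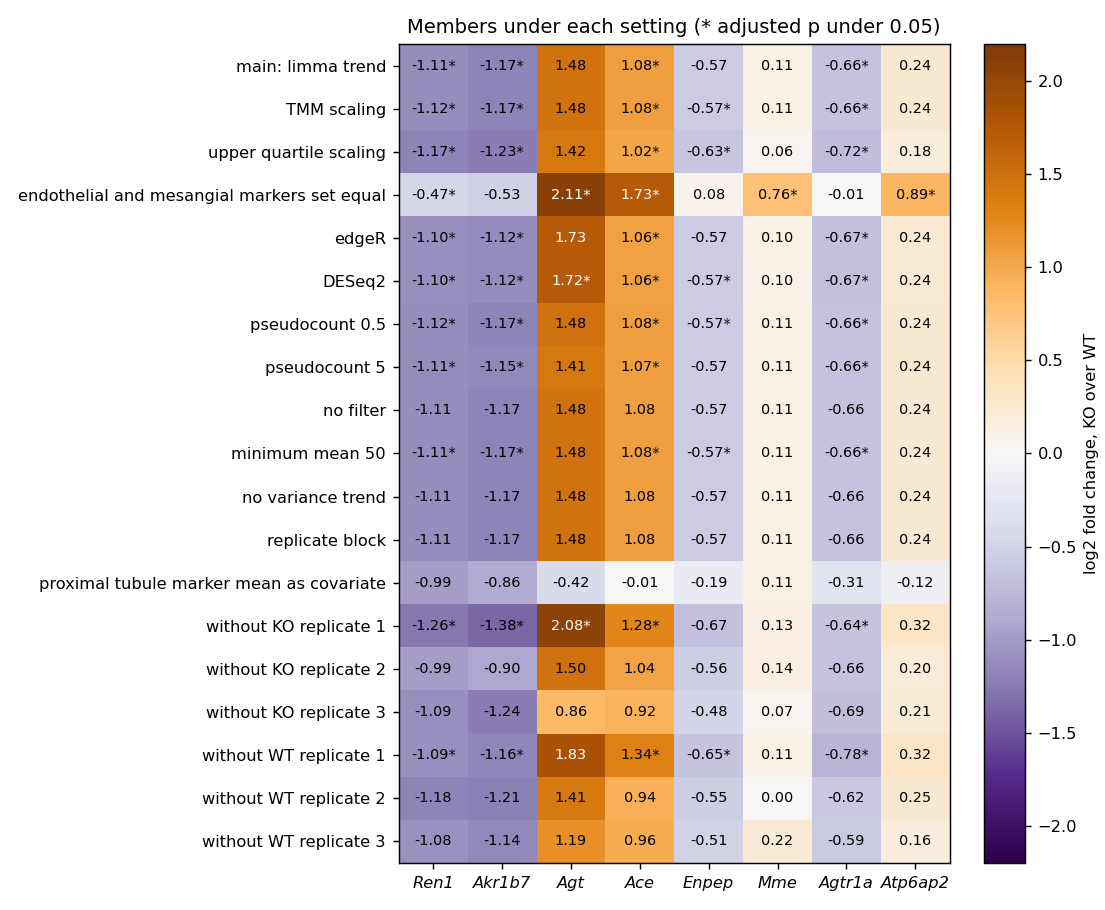
Log2 fold change of KO over WT of each tested member (columns) under each setting (rows); asterisks mark an adjusted p under 0.05. Ren1 and Akr1b7 were negative throughout, Ace was positive except for -0.01 with the proximal tubule covariate, and none of these 8 members had an asterisk without KO-2, KO-3, WT-2 or WT-3, nor without a filter, without the trend, with the block or with the covariate.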

How the data were processed

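RNA of glomeruli from 3 KO and 3 WT mice was sequenced with a directional kit, per the labels' protocols. The deposited table holds normalised counts, a signal for which the authors scaled gene counts by library, per the file headers. The submitters' processing notes name bcl2fastq 2.19, cutadapt 1.16.5, HISAT2 2.1, featureCounts 1.6.4, DESeq2 2.11.40.6 and build mm10. The sources used here give neither the strand setting nor the annotation nor the handling of multiply mapped reads.

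Whole reads were recovered, since 100% of the values were whole multiples of a step in each library (tolerance 0.01). Floors cover counting error only. RefSeq (GRCm38.p6) named 25275 of 27179 identifiers and gave the gene coordinates, and exon lengths and strands came from GENCODE M21. The test was limma 3.58.1 (R 4.3.3) on log2(normalised count + 1), with a variance trend and genotype as the only term, over 13946 genes averaging 10 or more, Benjamini-Hochberg adjusted over all of them at 0.05. This scale understates changes of low genes. Differences from marker lists were compared by two-sided exact permutation tests. Alternatives included edgeR 4.0.16 and DESeq2 1.42.0, both run on recovered reads. The tests were tried on simulated counts.

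The members and gene lists were chosen with earlier results of these data known. The naming rule took all members, all other pathway genes (1 item is not reported here, though the list counts include it), from each further list up to 4 called genes with the smallest adjusted p, and Gja5, Rbpj, Ptgs2 and Nos1; marker lists other than smooth muscle are given as counts only. Within a genotype, libraries differed beyond sampling noise (lowest chi-square per degree of freedom 13.2). P-values measure the spread between these libraries.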

Additional observations from a re-analysis of the deposited data

How the results depend on the processing

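The count of 3085 called genes was 8845 (8798 higher, 47 lower) with endothelial and mesangial markers set equal (which adds 0.64 to the median log2 fold change), 27 without a filter, 1 in limma without the variance trend, and 0 in limma with the replicate block or with the proximal tubule covariate (5305, 4284 and 402 genes at an unadjusted p below 0.05 in the last 3), against 2920 in edgeR and 3797 in DESeq2. Leaving out a library gave 0 to 4294. The count of called members, 4 of the 8 tested, was 0 without the trend, with the block or with the covariate. Without a filter it was 1 of all 9 members, and that was Agtr1b at 1 read in each KO library, not 1 of the 4. Leaving out a library gave 0 to 5. Agt, Mme and Atp6ap2 passed as higher with endothelial and mesangial markers equal. The direction turned for Ace (-0.009), Agt (-0.42) and Atp6ap2 (-0.12) with the covariate, and for Enpep (0.0758) with endothelial and mesangial markers equal. Ren1, Akr1b7, Agtr1a and Mme kept their sign in all settings, at -1.26 to -0.47, -1.38 to -0.53, -0.78 to -0.01 and 0.004 to 0.76. The cause of these changes was not tested. Same-numbered libraries deviated together in no pair (correlations -0.23, -0.19 and -0.01), so the block removes degrees of freedom without a known pairing. The median in place of the mean of the podocyte markers moved Enpep against them to -0.13. Depth limits Agtr1b and the other genes at or under 3 reads.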
